A study of Mus musculus with 103 samples.

Results

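Ribosomal protein genes encode the proteins that, with ribosomal RNA, make up the small and the large subunit of the cytosolic ribosome. They were taken as the genes whose platform symbol is Rpl or Rps with a number (with or without the endings a, x, l or l1), Rplp with 0, 1 or 2, or Rpsa. On the arrays 60 of 19938 measured genes met this rule, 38 with a symbol of the large and 22 with a symbol of the small subunit. Of 86 such symbols in RefSeq, another 17 occurred only on probe sets shared between several genes and were left out, and 9 were not analysed here.

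Every growing cell makes ribosomes, so these genes are often treated as invariant. Ribosomal RNA is transcribed by RNA polymerase I in the nucleolus, assembly factors there join it to the ribosomal proteins, and initiation and elongation factors then drive the finished ribosome along messenger RNA. In mouse, loss of single ribosomal protein genes gives tissue-restricted defects of the skeleton, the skin pigment and the blood, and the neural crest cells that build the face are sensitive to loss of ribosome production, as in Treacher Collins syndrome.

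The study is an atlas of the forming face of CD1 mouse embryos, an outbred stock, taken on embryonic days E8.5 and E9.5 and on day E10.5. No group carried an allele or a treatment. Regions were cut from frozen sections by laser capture, and the amplified RNA of each sample was hybridised to 1 Affymetrix whole-transcript array. The labels gave 22 groups of 4 to 7 libraries, 102 in all. At E10.5 these were central neuroepithelium at the midline, control neuroepithelium away from the facial eminences, neuroepithelium under the lateral and under the medial nasal prominence, lateral nasal eminence, medial nasal prominence, olfactory pit, Rathke's pouch, mandibular and maxillary arch, and the epidermal ectoderm of each arch. At E9.5 they were neuroepithelium, cranial mesenchyme, epidermal ectoderm, otic vesicle, mandibular arch and maxillary arch. At E8.5 they were mesenchyme and the floor plate, non-floor plate and caudal neural epithelium. One E9.5 sample, with labels that contradict each other, entered no comparison. The titles of the 4 medial neuroepithelium libraries name the lateral prominence, and they were grouped by their other labels.

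Values are log2 ratios to a baseline that the authors set for each probe set, so they compare libraries for a gene and say nothing of the level of 1 gene against another. Each difference has its SE after ±. The adjusted p values come from limma, by the Benjamini-Hochberg method over all 19938 genes. A gene was called at an adjusted p under 0.05. The number of arrays limits the precision, and the labels do not tie libraries to embryos, so libraries of a group may share an embryo and the p-values may be too small. In captured tissue, fewer cells of a type and less RNA per cell cannot be told apart.

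Some libraries went against their labels. The 4 libraries labelled E10.5 mandibular arch epidermal ectoderm had a mean over 12 surface ectoderm markers of -0.23 to 0.09 and over 12 mesenchyme markers of 1.04 to 1.31. In the 5 labelled E10.5 maxillary arch the ectoderm markers ranged from -0.46 to 2.66. Without these groups the median range of group means was 0.47 for ribosomal protein genes and 0.79 for all genes, and 32 members were called across the groups, against 30 with them. The SD of log2 ratios over all probe sets of an array ran from 0.39 to 1.33, with a median of 0.60, and 11 arrays lay above 0.85, a limit set with the data in view. They are called widely spread below.

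Ribosomal protein genes differed by small log2 amounts between groups of the embryonic face. Over the 22 groups the range of group means had a median of 0.47 log2 units among the 60 members and of 0.80 among all genes. The median SD over 102 libraries was 0.19 for members and 0.35 for all genes. Within groups the median SD was 0.18 for members and 0.31 for all genes. Set against this spread within groups, the median range of members was no smaller than that of all genes. A range above 1 was found for 7 members, 11.7% of them, and for 43.6% of all genes. These are descriptions of the list, with no test of it.

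**Figure D1:**
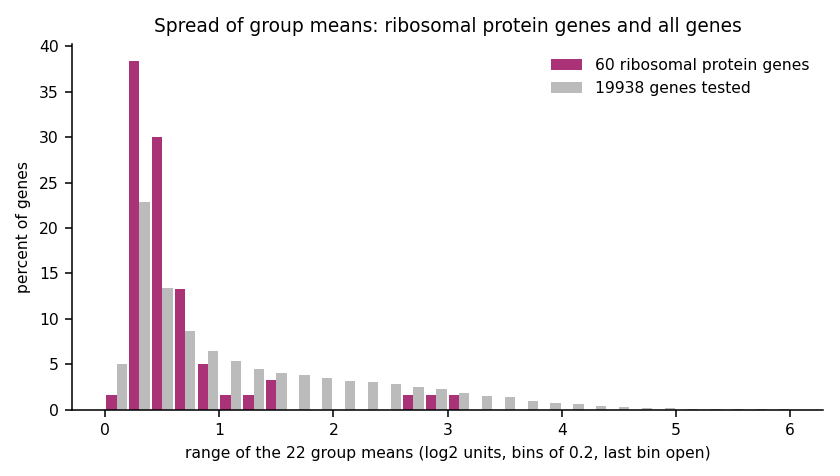
Percent of genes (vertical axis) by the range of their 22 group means in log2 units (horizontal axis, bins of 0.2), for the 60 ribosomal protein genes and for all 19938 genes. The median range was 0.47 for ribosomal protein genes and 0.80 for all genes, and 7 ribosomal protein genes lay above 1.

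The median of the 60 members in a library ran from -0.20 to 0.30. Averaged by group it ran from -0.08 in E10.5 maxillary arch epidermal ectoderm to 0.18 in E9.5 neuroepithelium. The SD between group means was 0.06, and the pooled SD between single libraries of a group was 0.11. Means of 4 to 7 libraries vary less than single libraries, so these SDs are not like quantities. In E9.5 neuroepithelium the 5 libraries had member medians of 0.30, -0.02, 0.23, 0.13 and 0.25. In E10.5 maxillary arch epidermal ectoderm the 4 libraries had -0.07, 0.00, -0.14 and -0.11. Apart from 1 library near the baseline the neuroepithelial libraries were the higher ones, but their lowest value lay below the highest ectodermal one. In the order of the 22 group means neighbours lay at most 0.07 apart, but gaps between so many ordered means are small in any case.

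**Figure D2:**
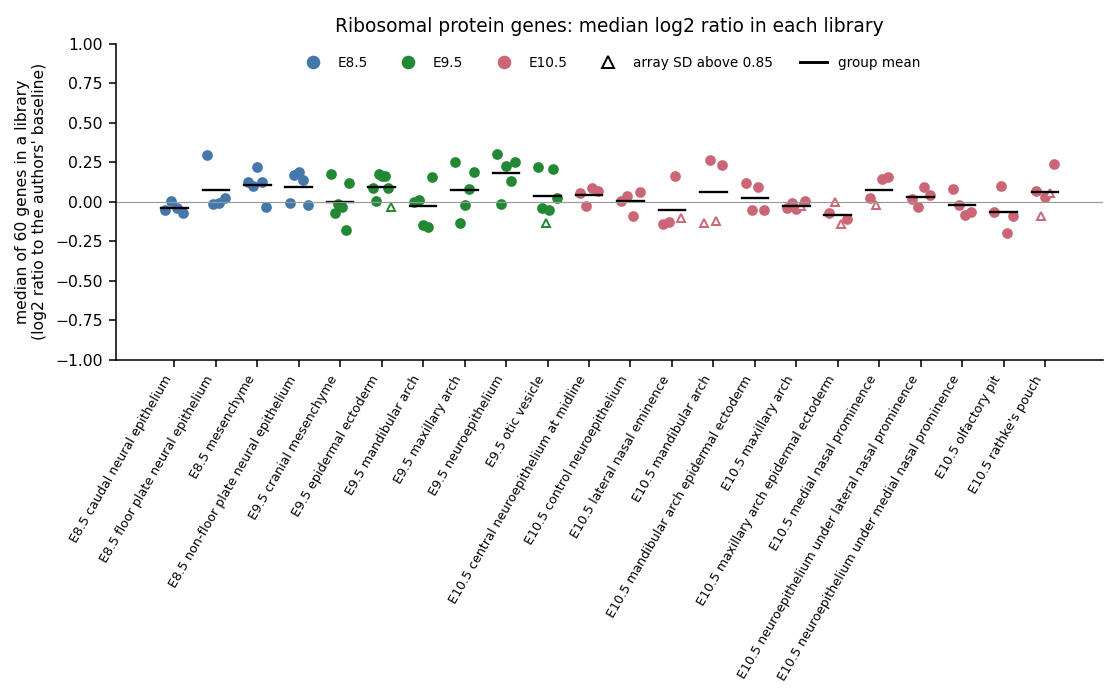
Median log2 ratio of the 60 ribosomal protein genes (vertical axis) in each of 102 libraries, by group and stage. Triangles are the 11 widely spread arrays and bars are group means. All libraries lie between -0.20 and 0.30, and the group means between -0.08 and 0.18.

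Within a group the members often moved as a block from library to library. In the 4 E10.5 mandibular arch libraries, 4, 56, 6 and 55 of the 60 members lay above their own group mean. In 19 of the 102 libraries 48 or more members lay above it, and in 17 libraries 12 or fewer did. Of all genes, between 37.8% and 62.4% lay above their group mean in any library, so none of the 102 libraries reached 80% or fell to 20%. Such shared shifts within a group enter the error of each member.

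On the widely spread arrays members left the baseline less often than all genes, but were less flat than on the other arrays. The SD over the members of an array had a median of 0.59 there and of 0.24 on the others. A value more than 1 log2 unit from the baseline was found in 6.06% of member values there and in 16.0% of all values. On the other 91 arrays it was 1.25% of member values and 9.74% of all values, so in proportion the share grew more for members than for all genes. For 45 members no library passed 1. Rpl12, Rpl7l1 and Rpl30 together held 70 of the 108 values that did. Rpl7l1, whose yeast relative acts in large-subunit assembly rather than in the finished ribosome, passed it in 22 libraries, among them all 11 widely spread ones.

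The widest member was Rpl12, a protein at the base of the stalk that binds translation factors, with a range of 3.20. Its 4 libraries of E10.5 mandibular arch had 1.30, 0.61, 1.19 and 0.19, and those of E10.5 maxillary arch epidermal ectoderm had -3.01, 0.26, -3.72 and -3.02. One ectodermal library thus lay within the values of the arch. Its pooled SD within groups was 1.07.

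Rpl7l1 had a range of 2.84 and Rpl30, a large-subunit protein, of 2.75. In Rathke's pouch, the ectodermal pocket that forms the anterior pituitary, Rpl30 had -3.02, -3.24, -2.31, -2.81 and -0.37. Its highest group was E10.5 control neuroepithelium, with -0.46, -0.12, 1.7 and 0.48. All but 1 pouch library lay below every one of these. Low values of Rpl30 also occurred in the otic vesicle, where 3 of 6 libraries had -2.55, -2.44 and -1.89 and the others -0.62, -0.28 and 0.07. Next came Rps3 (1.5), Rps4l (1.45), Rpl32l (1.40) and Rps2 (1.02).

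The narrowest were the large-subunit gene Rpl27 with a range of 0.14, and the small-subunit genes Rps4x and Rps18 with 0.23 each. Over 102 libraries Rpl27 ran from -0.34 through a median of 0.03 to 0.30. Rps4x ran from -0.24 through 0.04 to 0.42. Neither left the range of -0.34 to 0.42 in any library.

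Tested across the 22 groups with limma's moderated F test, 30 members (50%) were called, against 59% of all genes. The share of members was thus somewhat under the background.

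What a probe set for a ribosomal protein gene can read is limited by processed pseudogenes, intronless copies scattered over the genome. The members had 216 probe sets, 21 members having 1 and the others up to 14. The place of each was inferred from the genes of the probe sets numbered next to it. By this, the probe set used sat at the gene's own place for 28 of 60 members and on another chromosome for 30, while 99.0% of 2000 control genes sat at their own place. The 28 had a median range of 0.60 and 6 of the 7 ranges above 1. The other 32 had a median range of 0.38 and the remaining 1. Among these were Rpl27 and Rps4x, named above as narrow. Over all samples the SDs of the probe sets of Rps4x ran from 0.13 to 0.44. It was 0.13 for the one used and for the one at the gene's own place. Those of Rpl27 ran from 0.14 to 0.17, with 0.14 for the one used.

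Between stages, the members that passed were all lower in the groups of the later stage. The labels name no region cut at every stage, so stage and region cannot be told apart. Falls and rises along time, here and below, are differences between such groups. The broadest comparison set E10.5 control neuroepithelium and nasal prominences against E8.5 non-floor plate neural epithelium and mesenchyme, with neural and mesenchymal tissue weighted equally (12 against 10 libraries). Here 8 members fell and 0 rose, where 13.6% of all genes were called, 1.97% higher and 11.7% lower. The share of members that fell, 13.3%, was near that background. The median difference of the members was -0.08, against -0.05 for all genes.

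Of the 8 called members, the 4 with the largest differences were of the small subunit. They were Rps4l, a paralogue of the X-linked Rps4x, Rps2 and Rps3, both at the entry of the messenger RNA channel, and Rps19, needed to process the RNA of the small subunit and mutated in human Diamond-Blackfan anaemia. Rps4l fell by 0.90 ± 0.17 (adjusted p = 0.00011), Rps2 by 0.64 ± 0.14 (adjusted p = 8e-04), Rps19 by 0.55 ± 0.11 (adjusted p = 0.00027) and Rps3 by 0.54 ± 0.18 (adjusted p = 0.033). The large-subunit genes Rpl7a, Rpl9, Rpl23 and Rpl13 fell by 0.28, 0.27, 0.19 and 0.13 (adjusted p = 0.00096, 0.035, 0.045 and 0.036). Of all members Rpl7l1 had the largest difference, -1.11 ± 0.45, and was not called (adjusted p = 0.087).

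Ribosomal protein messenger RNAs typically begin with a run of pyrimidines, through which mTOR signalling controls their translation. The sequences around the RefSeq start (GRCm38.p6), from 50 bases before it to 20 bases into the transcript, are shown for the 7 of these 8 members that have one in the RefSeq table, 5′ to 3′ on the gene's strand, so that their starts can be compared. Runs of 8 or more pyrimidines are in capitals.
Rps19, chr7:24884542-24884611, plus strand: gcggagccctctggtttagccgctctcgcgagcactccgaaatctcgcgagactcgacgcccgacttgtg
Rps19, chr7:24884626-24884695, plus strand: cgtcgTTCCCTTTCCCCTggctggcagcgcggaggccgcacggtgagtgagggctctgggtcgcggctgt
Rps19, chr7:24884863-24884932, plus strand: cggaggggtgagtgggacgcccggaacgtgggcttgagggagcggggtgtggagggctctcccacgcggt
Rps2, chr17:24720013-24720082, plus strand: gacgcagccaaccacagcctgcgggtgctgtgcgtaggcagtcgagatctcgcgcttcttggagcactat
Rps3, chr7:99483690-99483759, minus strand: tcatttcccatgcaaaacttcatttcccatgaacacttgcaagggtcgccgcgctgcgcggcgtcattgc
Rpl7a, chr2:26910757-26910826, plus strand: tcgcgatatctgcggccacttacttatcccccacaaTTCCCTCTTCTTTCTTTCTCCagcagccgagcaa
Rpl9, chr5:65391412-65391481, minus strand: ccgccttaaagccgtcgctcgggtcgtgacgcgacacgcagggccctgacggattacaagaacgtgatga
Rpl13, chr8:123102300-123102369, plus strand: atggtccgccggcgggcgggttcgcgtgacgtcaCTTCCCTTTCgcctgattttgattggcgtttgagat
Rpl23, chr11:97782420-97782489, minus strand: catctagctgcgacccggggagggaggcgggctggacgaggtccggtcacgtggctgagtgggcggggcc

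Rpl7a and Rpl13 hold such a run close to the start, and the windows of Rps2, Rps3, Rpl9 and Rpl23 hold none. Rps19 has 3 annotated starts, and a run stands in the window of 1 of them, well before that start. Over the 48 members with a window in the RefSeq table, 22 (45.8%) had a run of 8 or more C or T within 25 bases of a start, against 22% of 17492 protein-coding genes. In the window from 250 bases before to 50 after the start, with both strands searched, CCGGAAG, a core bound by Ets factors, was found in 37.5% of members and 12.9% of genes. GGGCGG, bound by Sp1, was in 58.3% and 49.2%. AAGATGGC, bound by Yy1, was in 6.25% and 3.57%, and TATAAA in 12.5% and 14.8%. A match is only these letters and not a shown binding site.

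Rps19 had -0.19, 0.25, -0.65 and -0.49 in E10.5 control neuroepithelium, against 0.58, 0.45, 0.24, 0.44 and 0.29 in E9.5 neuroepithelium. In this step 3 of 4 libraries lay below all those of E9.5 and 1 lay among them, and the difference was -0.67 ± 0.16 (adjusted p = 0.03). This call was lost without any 1 of 5 libraries, replicates 3 and 4 of E10.5 and 1, 2 and 4 of E9.5, with differences of -0.66 to -0.54 and adjusted p values of 0.062 to 0.27. In E8.5 non-floor plate neural epithelium it had 0.20, 0.22, 0.32, 0.40 and -0.02. In the nasal prominences of E10.5 it ran from -0.97 through a median of -0.30 to 0.20, against 0.09 through 0.19 to 0.52 in the 6 libraries of E9.5 cranial mesenchyme. Values overlapped in 1 E10.5 library, and Rps19 fell by 0.62 ± 0.13 (adjusted p = 0.0031), a call kept without each of the 14 libraries in turn. Rps19 was the member called in the most comparisons along time. Markers moved with the comparison of prominences and mesenchyme. The mean of 12 mesenchyme markers ran from 0.28 to 1.75 in the prominences, against 1.52 to 2.55 in the mesenchyme, and 4 of 12 fell. That of 10 endothelial markers ran from -0.16 to 1.09, against 0.62 to 2.00, and 2 of 10 fell, as did 2 of 6 erythroid markers. Their part in the fall of Rps19 and Rps3 was not tested.

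Rps2 had -0.20, -0.23, -0.52 and -0.44 in E10.5 control neuroepithelium, against 0.20, 0.51, 0.79, 0.71 and 0.66 in E9.5 neuroepithelium. The groups did not overlap, and the difference was -0.92 ± 0.21 (adjusted p = 0.013). Without replicate 3 or 4 of E10.5 it was -0.87 or -0.89 (adjusted p = 0.061 or 0.066). E8.5 non-floor plate neural epithelium had 0.34, 0.38, 0.45, 0.29 and 0.44, above all E10.5 libraries and among those of E9.5. For Rps2 the probe sets disagreed. The one used sits at the gene's own place, while 2 others gave stage differences of -0.10 and 0.24, and the mean of all 3 gave -0.17 (adjusted p = 0.15). In the neuroepithelial step they gave -0.43 and -0.36, the direction of the one used.

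Rps3 was low in the E10.5 prominences. The lateral nasal eminence had -0.26, -0.29, 0.05 and -0.77 and the medial nasal prominence -0.96, -3.82, -0.30 and -0.26, against 0.06, 0.21, 0.03, -0.14, -0.20 and 0.16 in E9.5 cranial mesenchyme. All but 1 of the 8 prominence libraries lay below every mesenchymal one, and 1, on a widely spread array, lay far below. Rps3 fell by 0.85 ± 0.22 (adjusted p = 0.016), and without that library, medial replicate 2, the difference was -0.43 (adjusted p = 0.098). Without lateral replicate 4 or mesenchymal replicate 2 it was -0.77 or -0.81 (adjusted p = 0.058 or 0.063). In E10.5 control neuroepithelium it had 0.17, -0.06, -0.10 and 0.18, against -0.07 to 0.27 in E9.5 neuroepithelium, so only 1 library lay outside the E9.5 values. With the array SD as a covariate the difference in the prominences was -0.52 (adjusted p = 0.16) and that of the whole stage comparison -0.36 (adjusted p = 0.091). In the stage comparison its call was lost without any 1 of 5 libraries, at E10.5 replicates 2 and 3 of control neuroepithelium and 4 of the lateral nasal eminence, and at E8.5 replicates 5 of mesenchyme and 3 of non-floor plate epithelium, at differences of -0.53 to -0.50 and adjusted p values up to 0.075. Without medial replicate 2 the stage difference was -0.33 (adjusted p = 0.045), still called.

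Rps4l had 0.01, -1.38, -1.64 and -1.35 in E10.5 control neuroepithelium, against 0.23, 0.36, 0.35, 0.00 and 0.06 in E8.5 non-floor plate neural epithelium. In 3 of the 4 later libraries it was clearly lower, and the other overlapped. In the E10.5 prominences it ran from -0.51 to 0.13, against 0.24 to 0.45 in E8.5 mesenchyme, with no overlap. Its probe set at the gene's own place fell by 1.18, more than the one used.

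On the probe sets used, Rpl9, Rpl7a and Rpl13 moved by little but with small errors. All 8 probe sets of Rpl9 gave falls of 0.21 to 0.27 and all 9 of Rpl13 gave 0.08 to 0.16 in the stage comparison. The 3 of Rpl7a, none at the gene's own place, gave -0.70, -0.28 and, for the one used, -0.28. The 12 E10.5 libraries of Rpl7a lay between -0.75 and 0.26, against 0.10 to 0.30 in the 10 of E8.5, and 2 of the 12 lay among the E8.5 values. Along with this comparison, the mean of 6 erythroid markers ran from 0.00 to 1.07 in the E10.5 libraries, against -3.56 to -0.59 at E8.5, and 4 of the 6 rose. The part of blood cells in these falls was not tested.

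**Figure D3:**
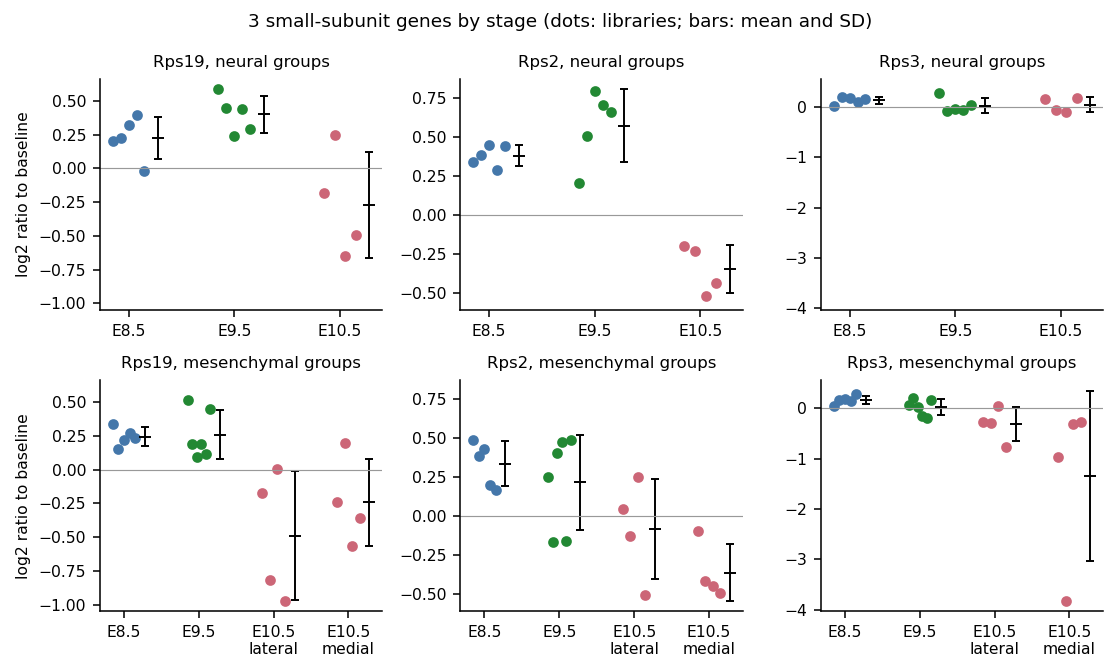
Log2 ratio to the authors' baseline (vertical axis) of Rps19, Rps2 and Rps3 by stage in neural groups (top) and mesenchymal groups (bottom), with dots for libraries and bars for mean and SD. Rps2 and Rps19 are lowest at E10.5, and 1 library of the medial nasal prominence holds the lowest value of Rps3, -3.82.

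The single steps gave few calls. In E10.5 control neuroepithelium against E9.5 neuroepithelium Rps2 and Rps19 fell and 0 members rose, where 0.426% of all genes were called, 0.145% lower. Here 5 of 60 members had higher means at E10.5, against 45% of all genes, with a median difference of -0.19 against -0.01 for all genes. Below an unadjusted p of 0.05 lay 15 members (25%), against 5.66% of all genes, and 10 members (16.7%) had no overlap between libraries, against 2.89%. In E9.5 neuroepithelium against E8.5 non-floor plate neural epithelium 49 members had higher means, against 42.1% of all genes, with a median difference of 0.09, but limma called 0, where 1.06% of all genes were called and 4 members lay below an unadjusted p of 0.05, against 8.74% of all genes. The 95% interval of the difference lay within 2-fold for 56 members and for 68.1% of all genes. These comparisons share the E9.5 libraries. In the E9.5 neuroepithelium libraries 50, 7, 49, 20 and 46 of the 60 members lay above their group mean. As members move together in this way, their counts here and below are not counts of independent observations. In the mesenchyme, the E10.5 prominences against E9.5 cranial mesenchyme gave 2 falls, Rps3 and Rps19, and 0 rises, where 3.96% of all genes were called, 3.26% lower. E9.5 cranial mesenchyme against E8.5 mesenchyme gave 0 calls, where 1.53% of all genes were called, with 5 members below an unadjusted p of 0.05, against 11.8% of all genes. Here 10 of 60 means were higher at E9.5, against 41.1% of all genes, and the interval lay within 2-fold for 57 members and 69.4% of all genes. In limma's test of the difference between the neural and the mesenchymal step, 0 members were called. For E9.5 against E8.5, 0.366% of all genes were, and 7 members (11.7%) lay below an unadjusted p of 0.05, against 4.91% of all genes. For E10.5 against E9.5, 0.296% were, and 18 members (30%) lay below it, against 14.2%.

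Between tissues of a stage, the E9.5 epidermal ectoderm gave the most calls, for all genes as for the members. Against the mean of the mandibular and maxillary arches (7 against 10 libraries), 14 members rose and 4 fell, where 37% of all genes were called, 13.6% higher and 23.3% lower. Of the members 30% were called, under that background, and 23.3% rose and 6.67% fell. The split changed with the scaling. With quantile normalization 23 members rose and 0 fell, and with the array SD as a covariate 19 rose and 1 fell. The median difference of the members was 0.07, against -0.05 for all genes.

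Most rises were small. Rpl10l, a paralogue of Rpl10 known from the testis, had a lowest value of 0.23, a median of 0.56 and a highest of 1.05 in the ectoderm, against -0.19, -0.06, -0.15, -0.34 and -0.14 in the mandibular arch and -0.08, -0.16, -0.22, 0.27 and 0.21 in the maxillary arch. Only 1 arch library, of the maxillary arch, reached the ectodermal values. Rpl10l rose by 0.68 ± 0.13 (adjusted p = 1e-04). Rpl8, a large-subunit protein near the peptidyl transferase centre, had 0.16, 0.18 and 0.26 as lowest, median and highest in the ectoderm, against -0.48 to 0.00 in the mandibular and -0.26 to 0.20 in the maxillary arch. Again 1 maxillary library lay among the ectodermal ones, and Rpl8 rose by 0.34 ± 0.09 (adjusted p = 0.002).

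Rpl26, a large-subunit protein that also regulates translation of Trp53 messenger RNA, had 0.09, 0.41 and 0.79 in the ectoderm, against -0.70 to 0.40 in the mandibular and -0.84 to 0.24 in the maxillary arch. Of 10 arch libraries 5 lay among the ectodermal values, and Rpl26 rose by 0.49 ± 0.14 (adjusted p = 0.0049). Rps20, a protein of the small-subunit head, had 0.19, 0.33 and 0.38, against -0.19 to 0.09 and -0.24 to 0.24. It rose by 0.32 ± 0.13 (adjusted p = 0.041), and only 2 of 10 arch libraries overlapped. The other rises were those of Rps21, Rps13, Rpl19, Rpl10a, Rpl29, Rplp1, Rpl28 and Rpl3l, from 0.16 to 0.38.

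Several rises rested on 1 library or 1 probe set. Rpl32l, named for its likeness to Rpl32, rose by 0.83 (adjusted p = 0.033), but its ectodermal values were 3.14 in 1 library and 0.08 to 0.38 in the other 6, and without that library the difference was 0.42 (adjusted p = 0.26). Without replicate 2 of the mandibular or of the maxillary arch it was 0.79 or 0.74 (adjusted p = 0.057 or 0.074). Rps12, a small-subunit protein, rose by 0.45 (adjusted p = 0.03) on a probe set whose neighbours lie on the X chromosome, while its probe set at the gene's own place gave 0.08 (adjusted p = 0.46). Its call was also lost without any 1 of 5 libraries, replicates 6 and 7 of the ectoderm, 2 of the mandibular and 2 and 3 of the maxillary arch, at differences of 0.35 to 0.46 and adjusted p values up to 0.098. Likewise the own-place probe sets of Rps21, Rps13 and Rpl19 gave 0.03, 0.07 and 0.04, where those used gave 0.38, 0.28 and 0.25.

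The members that fell in the ectoderm were 3 paralogues and Rpl7a. Rpl7l1 had -4.66, -2.62, -0.68, -0.42, -0.29, -0.22 and 0.08 in the ectoderm, against -0.67 to 0.73 in the mandibular and -0.48 to 1.07 in the maxillary arch. In 4 of 7 libraries it lay within the arch values, and 2 libraries were far below them. Rpl7l1 fell by 1.53 ± 0.51 (adjusted p = 0.016), and without the lowest library, replicate 7 and a widely spread array, the difference was -0.96 (adjusted p = 0.15). Without replicate 2 it was -1.30 (adjusted p = 0.052). Rps4l had -0.82, -0.59 and 0.19 as lowest, median and highest, against -0.03 to 0.35 and -0.32 to 0.36. In 4 of 7 libraries it lay below all arch values, and it fell by 0.54 ± 0.19 (adjusted p = 0.018), or by 1.17 on its probe set at the gene's own place. Without ectodermal replicate 6 or 7 the difference was -0.47 each (adjusted p = 0.055 and 0.069). Rpl39l, a paralogue of Rpl39, had -0.21 to -0.01 in the ectoderm, against 1.68, 1.51 and 0.58 in 3 arch libraries and -0.12 to 0.27 in the other 7. It fell by 0.50 ± 0.17 (adjusted p = 0.02). Without replicate 6 of the mandibular or 3 of the maxillary arch the difference was -0.33 or -0.37 (adjusted p = 0.093 or 0.079). Rpl7a fell by 0.21 ± 0.07 (adjusted p = 0.01).

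Markers of these tissues and of other cells moved with this comparison. The mean of 12 surface ectoderm markers ran from 0.46 to 1.95 in the ectoderm. It ran from -0.46 to 0.29 in the mandibular and from -0.56 to 0.74 in the maxillary arch. The highest maxillary value thus lay above the lowest ectodermal one, and 8 of 12 markers rose. The mean of 12 mesenchyme markers was at most 0.46 in the ectoderm and at least 1.31 in the arches, and 9 of 12 fell. The mean of 10 endothelial markers ran from -0.40 to 0.71 in the ectoderm, against 1.15 to 1.81 in the mandibular and 0.26 to 2.03 in the maxillary arch, and 9 of 10 fell. The mean of 6 erythroid markers ran from -2.53 to 0.30, against 0.29 to 0.95 and 0.02 to 1.65, and 4 of 6 fell. Their part in the members' differences was not tested.

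**Figure D4:**
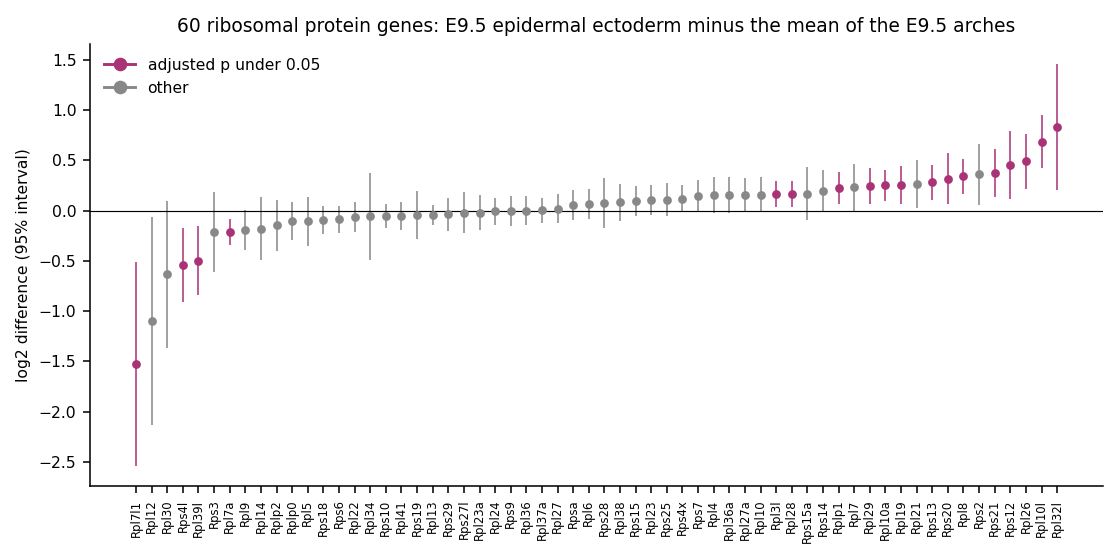
Log2 difference between E9.5 epidermal ectoderm and the mean of the E9.5 arches (vertical axis, with 95% interval) for each of the 60 ribosomal protein genes. The 14 called higher and 4 called lower are coloured, and differences run from -1.53 (Rpl7l1) to 0.83 (Rpl32l).

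At E10.5 the lateral and control neuroepithelium was set against the nasal prominences (8 libraries each). Here 5 members rose and 1 fell, where 19.4% of all genes were called, 13.4% higher and 5.97% lower. Rps3 ran from -0.20 to 0.18 in the neuroepithelium, against -3.82 to 0.05 in the prominences. Only 1 prominence library lay among the neuroepithelial values, and Rps3 rose by 0.84 ± 0.20 (adjusted p = 0.0021), or by 0.43 without the lowest library, still called. Rpl9 ran from -0.05 to 0.33, against -1.11 to 0.03, with 1 prominence library among the neuroepithelial values, and rose by 0.46 ± 0.10 (adjusted p = 0.00094). Rpl7l1 had -0.11, -0.27, 0.18 and -0.81 in the lateral and 0.34, 0.82, 0.19 and 0.99 in the control neuroepithelium, against -0.02, -0.54, 0.19 and -2.17 in the lateral nasal eminence and -3.53, -2.56, -1.36 and -0.99 in the medial nasal prominence. The medial libraries were the low ones. Rpl7l1 rose by 1.54 ± 0.52 (adjusted p = 0.027), and with the array SD as a covariate the difference was 0.65 (adjusted p = 0.29). It also lost its call without any 1 of 5 libraries, replicate 4 of control and 3 of lateral neuroepithelium, 4 of the lateral nasal eminence and 1 and 2 of the medial nasal prominence, at differences of 1.28 to 1.47 and adjusted p values up to 0.091. Rpl7a and Rpl41, which encodes the smallest ribosomal protein, rose by 0.23 each (adjusted p = 0.011 and 0.018). Without medial replicate 2 the difference of Rpl7a was 0.15 (adjusted p = 0.092). With all libraries the other probe sets of Rpl7a gave 1.03 and 0.38.

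Rps4l fell in the same comparison. It had -0.42, -0.81, -0.26 and -0.85 in the lateral neuroepithelium and 0.01, -1.38, -1.64 and -1.35 in the control neuroepithelium, against -0.51 to 0.13 in the prominences. Of the 8 neuroepithelial libraries 5 lay below all prominence values, and the difference was -0.69 ± 0.19 (adjusted p = 0.0062). The median array SD was 0.55 in the neuroepithelium and 0.75 in the prominences.

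In the remaining 4 tissue comparisons limma called 0 members. E8.5 mesenchyme against the neural epithelia had 0 members below an unadjusted p of 0.05 too, against 8.13% of all genes, where 2.4% of all genes were called. E9.5 otic vesicle against epidermal ectoderm had 6 below it, against 11.1%, where 0.391% of all genes were called. Without vesicle replicates 3 and 5, in which otic markers were low, 0 members were again called. E10.5 olfactory pit against the nasal prominences had 4, against 7.72%, where 0.913% were called. The 95% interval lay within 2-fold for 58, 56 and 56 members in these comparisons, and for 75.9%, 72.4% and 71.9% of all genes. E9.5 neuroepithelium against cranial mesenchyme differed from these. No member was called there, where 1.15% of all genes were, but 19 members (31.7%) lay below an unadjusted p of 0.05, against 7.15% of all genes. In this comparison, which shares its E9.5 neuroepithelium libraries with both neuroepithelial steps, 55 of 60 had higher means in the neuroepithelium, against 55.1% of all genes, with a median difference of 0.18 against 0.02 for all genes. The interval lay within 2-fold for 57 members and 71.4% of all genes. Members moved as a block between the E9.5 neuroepithelium libraries, so these counts of members are not independent observations. The mean of 12 neural epithelium markers ran from -0.16 to 0.93 in E8.5 mesenchyme, overlapping 0.70 to 1.15 in the neural epithelia. That of 12 mesenchyme markers ran from 1.83 to 2.26, against -0.94 to 0.35. In E9.5 cranial mesenchyme the neural mean ran from -0.69 to 0.78, against 1.28 to 1.68 in the neuroepithelium. The part of neural cells in the mesenchyme libraries was not tested.

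Of 9 members whose mouse mutants have skeletal, pigment or developmental defects, 5 were called across the 22 groups (Rpl38, Rps19, Rps20, Rpl27a and Rpsa), where 59% of all genes were. Their ranges of group means ran from 0.30 for Rpl24 to 0.89 for Rps19. Rpl38, mutated in Tail-short mice and known for its role in translating Hox messenger RNAs, ran from -0.45 through a median of 0.05 to 0.47 over all libraries, with a range of group means of 0.54 between Rathke's pouch and olfactory pit. Rpl24, mutated in Belly spot and tail mice, ran from -0.35 through 0.01 to 0.32. Of the 9, Rps19 was called in 3 comparisons and Rps20 in 1, and Rps7, Rpl27a, Rps6, Rpl22, Rpsa, Rpl38 and Rpl24 in none of the 11. Of 10 measured members whose human orthologues are Diamond-Blackfan anaemia genes, Rps19 was called along time (13.6% of all genes in the stage comparison) and Rpl26 and Rpl8 in the ectoderm (37% of all genes). Of 6 measured genes listed as paralogues of other ribosomal protein genes, 5 were called in the ectoderm, against 37% of all genes. Rpl32l, also called there, was not in this list. There Rpl10l and Rpl3l, a paralogue of Rpl3 known from muscle, rose, Rpl7l1, Rps4l and Rpl39l fell, and Rps27l, the Trp53-responsive paralogue of Rps27, differed by -0.02 and was not called.

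In 4 of the 11 comparisons many of the genes that make and use the ribosome were called. These were also the 4 comparisons with the most calls among all genes. In E9.5 epidermal ectoderm against the arches the median difference was 0.07 for ribosomal protein genes, -1.29 for 29 initiation factors, -1.45 for 48 ribosome assembly factors, -0.95 for 15 genes of RNA polymerase I and -0.85 for 76 mitochondrial ribosomal proteins, where 23.3% of all genes were called lower. Of the assembly factors 38 fell and 0 rose, with the largest falls for Utp4, Pes1 and Utp15, factors of ribosomal RNA processing (-2.94, -2.37 and -2.21). Of the initiation factors 21 fell, among them Eif2s3x and Eif4g2 (-2.41 and -2.11), and the cap-binding Eif4e rose (0.45). Of the RNA polymerase I genes 10 fell, led by Ubtf (-1.79). Myc, which drives ribosome production, fell by 1.99 ± 0.45 (adjusted p = 0.00076). Of the mitochondrial ribosomal proteins 38 fell and 1 rose.

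Between E10.5 and E8.5 the assembly factors again fell, 26 of 48 with a median difference of -1.11, led by Utp4, Utp15 and Ddx21 (-2.52, -2.32 and -2.28). Of all genes 11.7% were called lower there. The initiation factors had 14 falls of 29 (median -0.99), 4 of 6 elongation factors fell, and Myc fell by 2.46 ± 0.41 (adjusted p = 1.2e-05). In the E10.5 prominences against E9.5 cranial mesenchyme 12 initiation and 10 assembly factors fell (medians -1.20 and -0.96), where 3.26% of all genes were called lower. In the E10.5 neuroepithelium against the prominences 21 initiation factors, 18 assembly factors and 25 mitochondrial ribosomal proteins rose (medians 1.26, 0.93 and 0.71), with 1 mitochondrial fall. Of all genes 13.4% were called higher and 5.97% lower in it. Here Myc was lower, with a difference of -1.48 ± 0.46 (adjusted p = 0.017). These comparisons share the E10.5 prominence libraries. Other abundant housekeeping genes moved too, 5 of 10 falling in the stage comparison (median -0.32) and 4 in the prominences against mesenchyme (-0.42), and 6 rising with 1 fall in the neuroepithelium against the prominences (0.38). In the ectoderm 3 fell and 1 rose (-0.21). In the other 7 comparisons the only call among initiation factors, assembly factors and mitochondrial ribosomal proteins was Ncl, an assembly factor named after its values were seen, which fell by 1.92 ± 0.49 in the olfactory pit (adjusted p = 0.026). In the otic vesicle against ectoderm the medians of these 3 lists were 0.69, 0.38 and 0.51, against -0.06 for ribosomal protein genes. In E10.5 control against E9.5 neuroepithelium these lists had medians of 0.06, 0.01 and 0.09, nearer to 0 than the -0.19 of ribosomal protein genes. In E9.5 neuroepithelium against mesenchyme they had 0.08, 0.08 and 0.07, against 0.18.

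Array spread moved with these lists more than with the ribosomal protein genes. Without the 11 widely spread arrays the medians in the ectoderm were 0.08 for ribosomal protein genes, -0.79 for initiation factors, -1.01 for assembly factors and -0.40 for mitochondrial ribosomal proteins. With the array SD as a covariate they were 0.13, -0.73, -0.99 and -0.48. In the E10.5 neuroepithelium against the prominences the covariate gave -0.09, 0.74, 0.46 and 0.26. Those 3 other lists kept their direction in both comparisons. The part of array spread in their differences was not tested further.

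**Figure D5:**
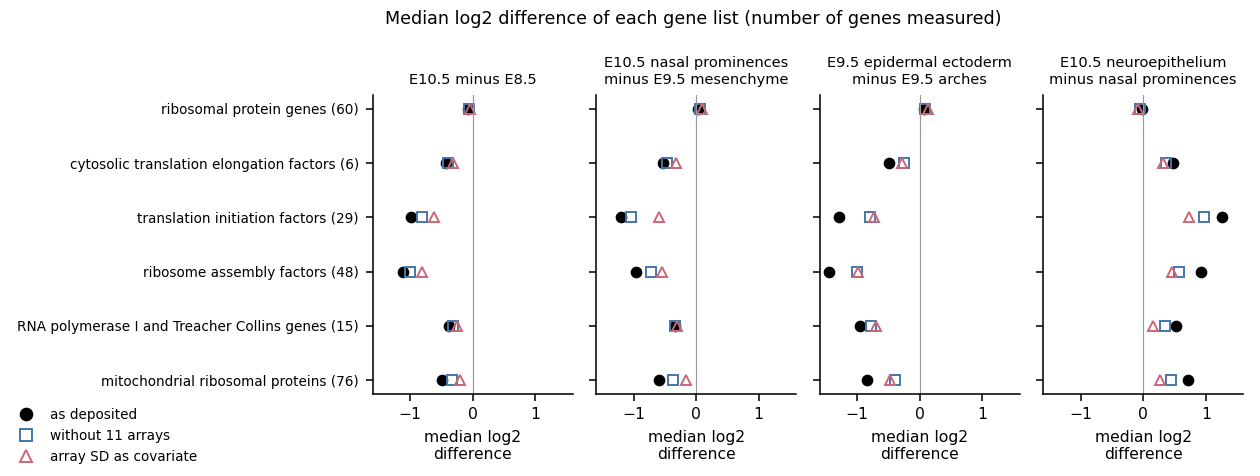
Median log2 difference (horizontal axis) of ribosomal protein genes and 5 other gene lists (rows, with the number measured) in 4 comparisons, as deposited, with the 11 widely spread arrays left out, and with array SD added as a covariate. The median of the ribosomal protein genes lies between -0.09 and 0.13 in every panel and setting, and those of initiation and assembly factors lie between -1.45 and 1.26.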

How the data were processed

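RNA of laser-captured regions was purified (Zymo), amplified by NuGEN Ovation Pico WTA and hybridised with a biotin label to Affymetrix whole-transcript arrays, per the labels' protocols. RMA (no version given) and the mm9 build are named in the submitters' processing notes. The values deposited by the authors are linear ratios. Tested on the values, the median of every probe set over 21 samples was 1 within 6e-08, so each ratio is relative to that median, a step that no source used here describes.

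Log2 of the ratio was analysed, whereas the design planned for log2 levels. A ratio is not a level, so no filter on dim genes could be applied. The platform annotation gave a single symbol for 21789 of the 28856 measured probe sets, several for 1621 and none for 5446. Only those with 1 were used, for each gene that of highest mean log2 ratio. Group means were fitted over 102 libraries (80 residual degrees of freedom) with limma 3.58.1 in R 4.3.3, with 11 contrasts, eBayes and Benjamini-Hochberg adjustment within a comparison. The fit was tested on simulated data, independent normal values with 1 SD per gene over all groups. Such data hold no shared shifts of members, widely spread arrays or shared embryos. The test thus cannot show how the p-values fare with them. There is no read depth, and precision is limited by how many arrays a group has.

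The members and lists were chosen with earlier results of these data known. Named were up to 4 called members per direction and comparison, the 5 widest and 3 narrowest, every paralogue, and up to 3 genes per list and direction. Further members were named after their values were seen. Alternatives were quantile normalization, median centring, array weights, the mean over a gene's probe sets, a robust prior with a variance trend, omission of widely spread arrays, the array SD as a covariate, the compared groups alone, these with the replicate number as a block, and each library left out. Probe sets at the gene's own place, the omission of libraries that went against their labels, and the test of neural against mesenchymal steps were added after the data were seen. Promoters and gene locations are RefSeq's.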

Additional observations from a re-analysis of the deposited data

Results flagged for a closer look

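In 84 groups of values the highest or lowest library was set against the others. These were member medians and the called members of largest difference in a comparison, in groups of 4 to 7 libraries. Of them 8 stood apart by Dixon's criterion, which chance meets in about 1 of 20 groups. The median of the 60 members was 0.30 in replicate 1 of E8.5 floor plate neural epithelium, with the other 3 at -0.01 to 0.02, and 0.16 in replicate 3 of E10.5 lateral nasal eminence, with the other 3 at -0.14 to -0.10. In replicate 3, 57 of 60 members lay above their group mean. Rpl32l was 3.14 in replicate 1 of E9.5 epidermal ectoderm, and its call there was lost without this library. In E9.5 mandibular arch Rpl39l was 1.68 and Rps12 was 0.62 in replicate 6, and Rpl7a was -0.0127 in replicate 4, each apart from the other 4 libraries. In E9.5 maxillary arch Rpl26 was -0.84 in replicate 2 and Rps4l was -0.32 in replicate 4. The cause of these values was not tested.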

How the results depend on the processing

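None of the 21 single-gene calls examined turned its direction under the alternatives run. The other member calls were followed as counts only. With array weights the calls across 22 groups were 48 (30 as reported), those of the stage comparison 14 (8), of E9.5 against E8.5 neuroepithelium 3 (0) and mesenchyme 2 (0), and of the E10.5 prominences against E9.5 mesenchyme 4 (2), the last also 4 with the mean of all probe sets. Quantile normalization gave 1 (0) in E9.5 neuroepithelium against mesenchyme, and 23 higher and 0 lower in the ectoderm (14 and 4). The stage comparison gave 4 with median centring and 4 with the array SD as a covariate, which gave 1 in the prominences against mesenchyme and 1 (0) in the olfactory pit. The pit also gave 1 without widely spread arrays. The ectoderm gave 11 (18) with own-place probe sets. With the compared groups alone, calls were 0 (2) in the E10.5 neuroepithelium over time, 0 (2) in the prominences over time, 9 in the ectoderm and 3 (6) in the E10.5 neuroepithelium against prominences. With the replicate number as a block these were 0, 0, 2 and 2. Deviations of libraries of the same number had correlations of -0.39 to 0.47. Libraries of different numbers were not compared, so this cannot tell whether the numbers pair the samples.

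With each library left out, calls ran from 4 to 10 in the stage comparison (4 without replicate 3 of E8.5 non-floor plate neural epithelium), 11 to 21 in the ectoderm (11 without ectodermal replicate 7), 4 to 7 in the E10.5 neuroepithelium against prominences (4 without replicate 4 of the lateral nasal eminence), 1 to 3 in the prominences over time, 0 to 3 in the E10.5 neuroepithelium over time (0 without replicate 3 of the control neuroepithelium), 0 to 1 in E9.5 neuroepithelium against mesenchyme, 0 to 1 in the pit and 0 to 0 elsewhere. Of the 21 single-gene calls 6 held with the compared groups alone and a replicate block, 9 with the compared groups alone, 14 with the array SD as a covariate, 16 with quantile normalization, 18 to 20 with the mean of all probe sets, median centring, array weights or no widely spread arrays, and 21 with a variance trend. Of 19 with an own-place probe set 18 held. Leaving out each library in turn took 72 refits. They gave 350 values for the 21 calls, many from the same refit, and 315 of these kept the call. Values cannot show levels or detection, and effects below the spread between libraries were not detectable with 4 to 7 arrays a group.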
